A study of Mus musculus with 5 samples.

Results

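The serotonin receptor genes of central amygdala (CeA) Drd2 neurons are described here from ribosome-bound RNA. They were taken by gene name, and all 10 genes sought (Htr1a, Htr1b, Htr1d, Htr1f, Htr2a, Htr2c, Htr3a, Htr4, Htr6 and Htr7) were found among the 15093 genes of the deposited table. Translating ribosome affinity purification (TRAP) pulls down ribosomes that carry a tagged subunit, so that only RNA on the ribosomes of the tagged cells is meant to be sequenced. Adult Drd2-TRAP mice, in which Cre from a Drd2 transgene switches on an EGFP-tagged Rpl10a in the Rosa26 locus, were used in both groups, so any cell that had ever made Cre can carry the tag. There were 3 libraries of fear conditioned mice and 2 of home cage mice, each from bilateral punches centered over the CeA of 3 pooled animals and collected 2 h after the session. The labels place this collection after extinction and name home cage controls, while the text of the study describes collection after conditioning and controls that heard the tone without shock. The labels name no batch, so whether preparation also differed between the groups is not known. Each p-value below measures the spread between pools of 1 experiment.

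Serotonin reaches the CeA from the raphe nuclei and acts there through a family of receptors that differ in what they switch on. The 5-HT1 receptors couple to Gi/o proteins, which lower cAMP and open potassium channels. The 5-HT2 receptors couple to Gq/11 and phospholipase C, the 5-HT4, 5-HT6 and 5-HT7 receptors couple to Gs and raise cAMP, and the 5-HT3 receptor is a cation channel. A neuron's response to serotonin therefore depends on which of these it translates, and serotonin acting in the amygdala has long been tied to fear and anxiety.

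Values are reads per 1000000 of an effective library size, as the authors scaled them, and those of single libraries are given in replicate order. The libraries held 19605318 to 27937520 reads on genes, and 3 reads correspond to a value of 0.10 to 0.16, a floor that covers counting error only. The home cage libraries stood apart from the rest, with 976 and 2681 genes listed at 0 against 159 to 349 in the fear conditioned libraries, and they also differed from each other. The genes that define Drd2 projection neurons were present in every library. The summed value of Drd2, Adora2a, Gpr6 and Penk was 15033 to 17120 in fear conditioned and 6421 to 9284 in home cage libraries. Most of this sum was Penk, with 13565 to 16076 and 6098 to 8606. Drd2 itself had values of 326 to 555 in fear conditioned and 128 to 262 in home cage libraries. Groups were compared with limma on log2(value + 1) over the 13560 genes whose values averaged 1 or more (two-sided, Benjamini-Hochberg adjusted across all of them). To be called, a gene needed an adjusted p below 0.05 and a log2 fold change beyond 0.5 in either direction. Of the receptor genes, 8 of 10 entered this test, since Htr1b and Htr3a had means under 1.

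Divided by the deposited gene lengths, Htr1d was the most abundant receptor gene and Htr3a the least. Htr1d encodes a Gi/o-coupled receptor best known as a presynaptic brake on transmitter release and as a target of triptans. Its mean level over the 5 libraries was 21.4 per kilobase, followed by Htr2c with 5.54, Htr4 with 4.97, Htr7 with 2.11, Htr6 with 1.97, Htr2a with 1.61, Htr1f with 1.13, Htr1b with 0.614, Htr1a with 0.586 and Htr3a with 0.437. The mean of Htr4 rested on home cage replicate 2, at 17.2 per kilobase against 0.768 to 3.57 elsewhere, and without that library it was 1.90, in place 5 and below Htr7. The mean of Htr2a without fear conditioned replicate 2 was 0.944. Htr1d ranked first in 4 of 5 libraries and second, behind Htr2c, in home cage replicate 1. No pair of neighbours in this order kept its order in all 5 libraries. Htr1d was above Htr2c in 4 of them, Htr7 above Htr6 in 4 and Htr1f above Htr1b in 4, while each of the other pairs of neighbours held in only 2 or 3, so the places of these neighbours did not differ beyond the spread between libraries.

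**Figure D1:**
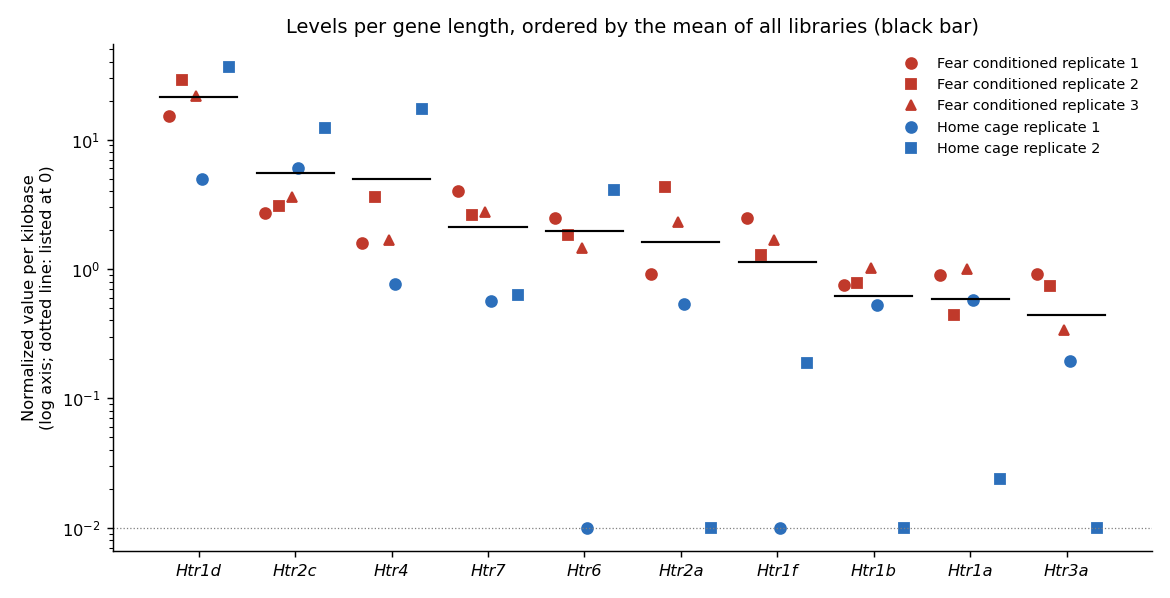
Normalized value per kilobase of gene length (log axis) for each of the 10 serotonin receptor genes, 1 point per library, with black bars at the mean of all 5 libraries and values listed at 0 drawn on the dotted line. Htr1d stands highest with a mean of 21.4 per kilobase, and the points of most neighbouring genes overlap.

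In the sum of these levels per kilobase, Gi/o-coupled receptors held the largest share in 4 of 5 libraries. Their share was 60.5%, 66.1% and 67.6% after fear conditioning, against 43.0% and 51.6% in the home cage. Most of it was Htr1d. The Gq/11-coupled pair Htr2a and Htr2c held 11.3%, 15.5% and 15.8% after fear conditioning, against 46.3% and 17.4% in the home cage, so its share exceeded that of the Gi/o class in home cage replicate 1. Gs-coupled receptors held 25.3%, 16.9% and 15.7% in fear conditioned libraries, and the home cage libraries lay outside that range on either side with 9.40% and 31.0%. The share of the channel gene Htr3a was at most 2.86% in any library. The home cage shares rest on very different totals, 14.2 per kilobase in replicate 1 and 70.8 in replicate 2, against 32.0 to 47.5 in the fear conditioned libraries. Shares were not tested, since the members were chosen as a list.

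**Figure D2:**
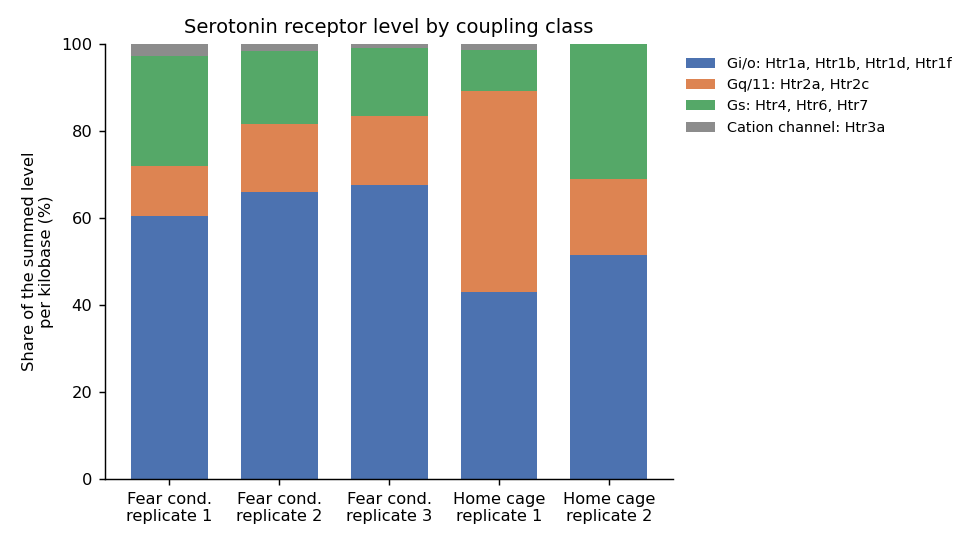
Share (%) of the summed level per kilobase of the 10 receptor genes held by each coupling class, 1 bar per library. The Gi/o share lies between 60.5% and 67.6% in the fear conditioned libraries and is 43.0% and 51.6% in the home cage libraries.

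Between the groups, 0 of the 8 receptor genes tested were called, with 0% of all 13560 genes called by limma and 2280 at an unadjusted p under 0.05. At an unadjusted p under 0.05, the genes with higher values after fear conditioning were Htr7, Htr1f and Htr2a (3 of 8, against 9.49% of all genes tested), and Htr2c had lower values (1 of 8, against 7.32%). In these same 4 genes the 3 fear conditioned libraries all lay on the same side of both home cage libraries. Among all genes tested, 20.2% had every fear conditioned value higher and 16.1% every value lower, together 36.4%. The median log2 fold change of the 8 receptor genes was 0.98, beside 0.08 over all genes tested. This median depended on the filter. With no filter it was 0.90 over the 10 members, beside 0.08 over all genes. When only genes reaching 1 in all 5 libraries were kept, 4 members remained, 2 higher and 2 lower. Their median was then -0.09, beside -0.02 over all genes kept. In the main fit, Htr1f and Htr2a passed the filter on low values only through their fear conditioned libraries. The numbers of reads also allowed a count test, DESeq2, which called 2 of the 10 members, Htr7 and Htr2c, against 7.47% of all genes, while edgeR's quasi-likelihood test called 0 genes, with 2347 at an unadjusted p under 0.05. For a single gene the smallest p that an exact permutation test can give with 3 libraries against 2 is 0.1.

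**Figure D3:**
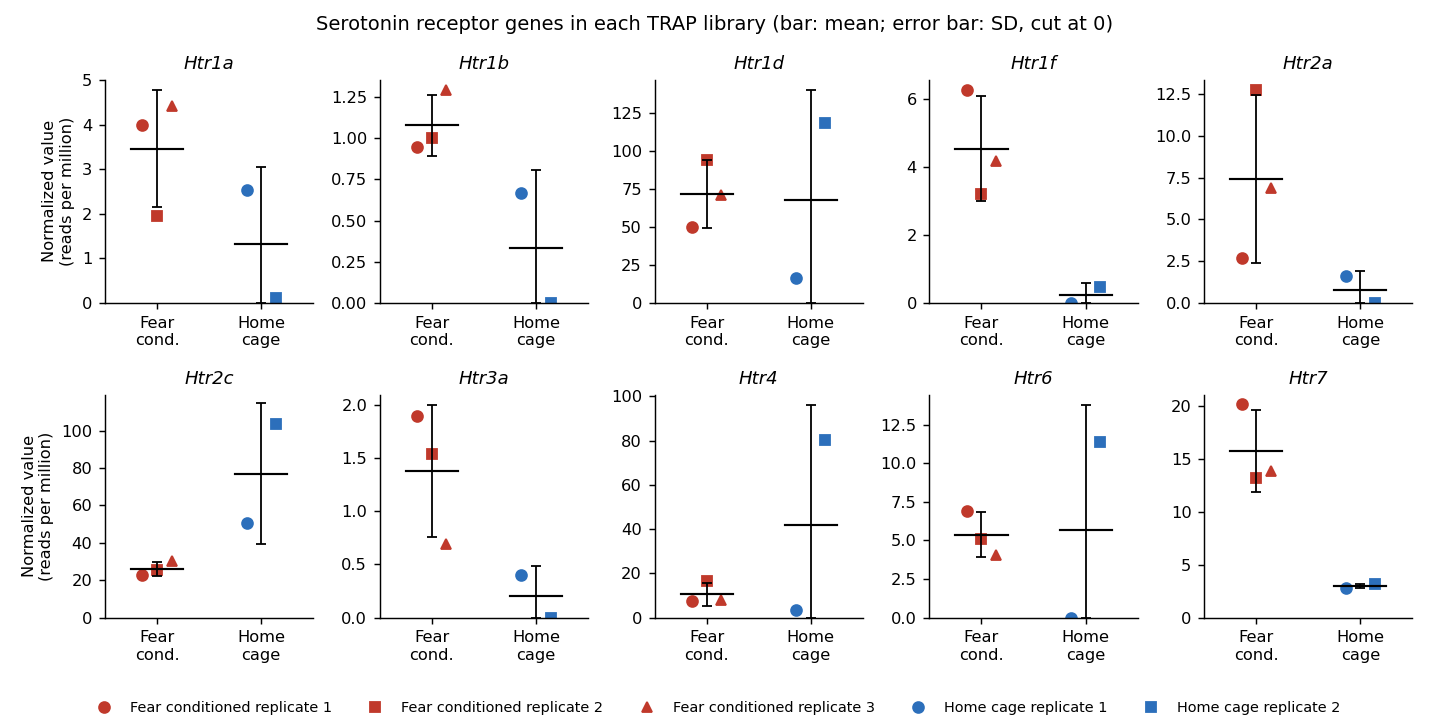
Normalized value (reads per 1000000) of each receptor gene in every library, with the mean as a bar and the SD as an error bar cut at 0. The groups are apart for Htr7, Htr1f, Htr2a, Htr1b and Htr3a (fear conditioned higher) and Htr2c (fear conditioned lower), and the home cage libraries lie far apart for Htr1d, Htr4 and Htr6.

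Of the Gs-coupled receptors, Htr7 (ENSMUSG00000024798) had the most even values within groups. Its receptor raises cAMP and is known for roles in circadian timing, mood and neuronal outgrowth. Values were 20.2, 13.2 and 13.9 after fear conditioning, from 426, 317 and 279 reads, against 2.84 and 3.16 in the home cage, from 85 and 60 reads. The lowest fear conditioned library was 4.17 times the highest home cage library, so the groups did not overlap, and the home cage pair was nearly equal. The means were 15.8 ± 3.86 (SD, n = 3) and 3.00 ± 0.23 (SD, n = 2), a 5.25-fold ratio. On the log2(value + 1) scale the fold change was 2.04 (standard error 0.52, 95% interval 0.79 to 3.30), with an unadjusted p of 0.007 and an adjusted p of 0.200 from limma. DESeq2 gave an adjusted p of 0.0027, edgeR's quasi-likelihood test 0.172. An exact permutation test, two-sided, gave p = 0.1.

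Markers of Drd2 and Drd1 projection neurons moved in the same direction as Htr7. All 4 Drd2 markers tested and 3 of 6 Drd1 markers were higher at an unadjusted p under 0.05 (limma), beside 9.49% of all genes. The summed Drd1 markers had values of 182 to 378 in fear conditioned libraries and 101 to 119 in home cage libraries. Set against Drd2 of the same library, an alternative added after seeing the data, the Htr7 fold change was 0.89 on the log2 scale (± 0.89 SE, limma adjusted p = 0.505) and its groups overlapped, on a scale where the median gene stood at -1.07. In such pull-downs, more cells of a type and more RNA per cell cannot be told apart, and the part of these markers in the Htr7 difference was not tested.

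The sequence upstream of Htr7 is shown because this gene and Htr2c, described further on, were the members whose groups did not overlap and that had more than 3 reads in every library. The 250 bases before the RefSeq start of Htr7 (GRCm38.p6, chr19:36057361-36057610, minus strand) are written 5′ to 3′, with motif letters in capitals. The build that the submitters name for their processing is mm8, and the window is printed only for its sequence.

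Htr7: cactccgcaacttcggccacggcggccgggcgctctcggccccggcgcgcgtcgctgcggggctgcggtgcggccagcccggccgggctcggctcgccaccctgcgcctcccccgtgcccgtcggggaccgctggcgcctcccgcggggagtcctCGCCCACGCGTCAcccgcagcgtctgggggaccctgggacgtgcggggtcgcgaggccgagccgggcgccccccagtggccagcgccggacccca

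Searched on both strands were the full cAMP response element TGACGTCA, its core TGACG, the AP-1 motif TGANTCA, the EGR motif GCGNGGGCG and TATAAA. The EGR motif and the core of the cAMP response element were found, starting 95 and 87 bases before the start and sharing 1 base. EGR factors are products of activity-induced genes, and the cAMP response element is bound by CREB. Of 32851 windows of this length over all RefSeq starts, 4.70% hold the EGR motif, 17.8% the core, 1.55% the full element, 6.75% the AP-1 motif and 12.4% TATAAA. The window is 82.0% G and C, against a median of 52.4% over all windows. A match describes letters only and is not a binding site.

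Htr4 (ENSMUSG00000026322) and Htr6 (ENSMUSG00000028747), the other Gs-coupled members, had home cage values on either side of the fear conditioned ones. The 5-HT4 receptor is known for effects on memory and feeding, and the 5-HT6 receptor for its abundance in striatal neurons and as a target of cognition-enhancing drugs. Htr4 had values of 7.44, 16.6 and 7.80 after fear conditioning, against 3.57 and 80.2 in home cage replicates 1 and 2. Home cage replicate 2 was thus 22.4 times replicate 1. The log2 fold change of Htr4 was -0.82 (± 1.2 SE, limma adjusted p = 0.752), -2.89 (adjusted p = 0.0013) without home cage replicate 1 and 1.26 (adjusted p = 0.0757) without replicate 2, so that its direction depended on which home cage library was used. Htr6 had values of 6.92, 5.12 and 4.07 after fear conditioning, 0 in home cage replicate 1 and 11.4, from 216 reads, in replicate 2. Its log2 fold change was 0.83 (± 1.09 SE, limma adjusted p = 0.718), -0.98 (adjusted p = 0.0438) without replicate 1 and 2.65 (adjusted p = 0.0046) without replicate 2.

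Htr1d (ENSMUSG00000070687), the most abundant member, did not differ between the groups beyond the spread between libraries. Its values of 49.8, 94.3 and 70.8 after fear conditioning came from 1050 to 2264 reads, while home cage replicates 1 and 2 stood at 16.3 and 119. The home cage libraries thus enclosed all 3 fear conditioned libraries and lay 7.28-fold apart. The means were 71.6 ± 22.3 (SD, n = 3) and 67.5 ± 72.4 (SD, n = 2), and the log2 fold change was 0.63 (± 0.80 SE, 95% interval -1.30 to 2.55, limma adjusted p = 0.708). Without home cage replicate 1 the log2 fold change turned to -0.77 (adjusted p = 0.0879) and without replicate 2 it was 2.02 (adjusted p = 0.0071). The genes whose profile over the 5 libraries was most like that of Htr1d were Arl15, Zfp873 and Zdhhc24, with a root mean square difference of the centred log2(value + 1) values of 0.06, 0.15 and 0.15 among 13560 genes. This likeness is a description over 5 libraries.

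Htr1f (ENSMUSG00000050783), a Gi/o-coupled relative of Htr1d that is also a target of migraine drugs, was near or under the floor in home cage libraries. Its values were 6.26, 3.21 and 4.17 after fear conditioning, from 132, 77 and 84 reads. Home cage replicate 1 held 0 reads and replicate 2 held 9, a value of 0.475. All 3 fear conditioned libraries lay above both home cage libraries, with a log2 fold change of 2.15 (± 0.56 SE, unadjusted p = 0.0079, adjusted p = 0.205, limma). With so few home cage reads the size of this fold rests on the scale used: it was 4.22 with a pseudocount of 0.1 (limma adjusted p = 0.205), 4.23 in DESeq2 (adjusted p = 0.105) and edgeR (adjusted p = 0.368), and 1.40 after quantile normalization (limma adjusted p = 0.328). Relative to Drd2 the fold change was 1.01 on the log2 scale (adjusted p = 0.472, limma) and the groups still did not overlap.

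Htr1a and Htr1b, the best-studied Gi/o-coupled receptors, were scarce in these pull-downs. The 5-HT1A receptor is the inhibitory receptor targeted by buspirone and also the somatic autoreceptor of raphe neurons, and the 5-HT1B receptor sits on axon terminals. Htr1a (ENSMUSG00000021721) had values of 3.98, 1.96 and 4.42 after fear conditioning and 2.54 and 0.105 in home cage replicates 1 and 2, the last from 2 reads. The groups overlapped, with a log2 fold change of 1.12 (± 0.71 SE, limma adjusted p = 0.453), which was 1.96 (adjusted p = 0.0061) without home cage replicate 1 and 0.28 (adjusted p = 0.649) without replicate 2. Htr1b (ENSMUSG00000049511) was counted 20, 24 and 26 times after fear conditioning against 20 and 0 times in the home cage, for values of 0.948, 1.00, 1.29, 0.668 and 0. Fear conditioned replicate 1 and home cage replicate 1 thus held equal reads, so the groups were apart only after scaling, and the gene was too low to enter the test (0.68 on the log2 scale and adjusted p = 0.441 in limma without a filter).

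Htr2c (ENSMUSG00000041380) was the only member with lower values in every fear conditioned library. It encodes the Gq/11-coupled 5-HT2C receptor, which is known for roles in anxiety, feeding and the control of dopamine neurons, whose transcript is edited by adenosine deaminases, and which is abundant in the choroid plexus. Values were 22.9, 25.7 and 30.2 after fear conditioning, from 482 to 616 reads, against 50.5 and 104 in the home cage, from 1512 and 1965 reads. The fear conditioned libraries were close together, while the home cage libraries were 2.05-fold apart and both above them. The means were 26.2 ± 3.73 (SD, n = 3) and 77.1 ± 37.6 (SD, n = 2), 2.94-fold higher in the home cage group. The log2 fold change was -1.44 (standard error 0.40, 95% interval -2.40 to -0.48), with an unadjusted p of 0.0101 and an adjusted p of 0.210 from limma. DESeq2 gave an adjusted p of 0.0200, edgeR's quasi-likelihood test 0.171, and an exact permutation test p = 0.1. Relative to Drd2 the log2 fold change was -2.59 (adjusted p = 0.078, limma), on a scale where the median gene stood at -1.07. That scale lowers every log2 fold change by that of Drd2 (1.15), so it adds no further decrease of Htr2c.

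Choroid plexus markers were far higher in the home cage libraries, where Htr2c was also higher. The summed value of 12 such markers was 113 to 186 in fear conditioned libraries and 1954 to 2263 in home cage libraries. Of the 11 tested, 7 were lower after fear conditioning at an unadjusted p under 0.05 (limma), beside 7.32% of all genes. Ttr, which defines this tissue, had values of 0.522, 22.1 and 0.348 after fear conditioning and 913 and 1320 in the home cage libraries. In the fear conditioned libraries, 3 to 5 of the 12 markers were at or under the floor of 3 reads, as were 0 and 4 of them in home cage replicates 1 and 2. Most of the home cage sum was Ttr and Enpp2, the latter with values of 1201 and 482. Astrocyte markers (598 to 776 against 1554 to 2452), oligodendrocyte markers (1269 to 2694 against 2781 to 5328), endothelial and mural markers (17.2 to 48.3 against 90.5 to 237) and pallial glutamatergic neuron markers (89.8 to 297 against 470 to 581) also had higher sums in both home cage libraries. Of these, 4 of 8, 4 of 8, 1 of 8 and 4 of 12 genes were lower after fear conditioning at an unadjusted p under 0.05 (limma). At that p, 1 endothelial or mural and 2 pallial genes were higher. The shares of all genes were 7.32% lower and 9.49% higher. Most of the endothelial and mural sum in home cage replicate 2 was Ly6c1, with 150 there against 8.98 in replicate 1. The sums of microglia markers (64.9 to 111 against 101 to 127) overlapped between the groups. Of these, 1 of 8 genes was lower and 0 were higher at an unadjusted p under 0.05 (limma). For GABAergic interneuron markers (284 to 423 against 424 to 446) 0 of 11 genes reached that p. The part of these cells in the Htr2c difference was not tested.

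**Figure D4:**
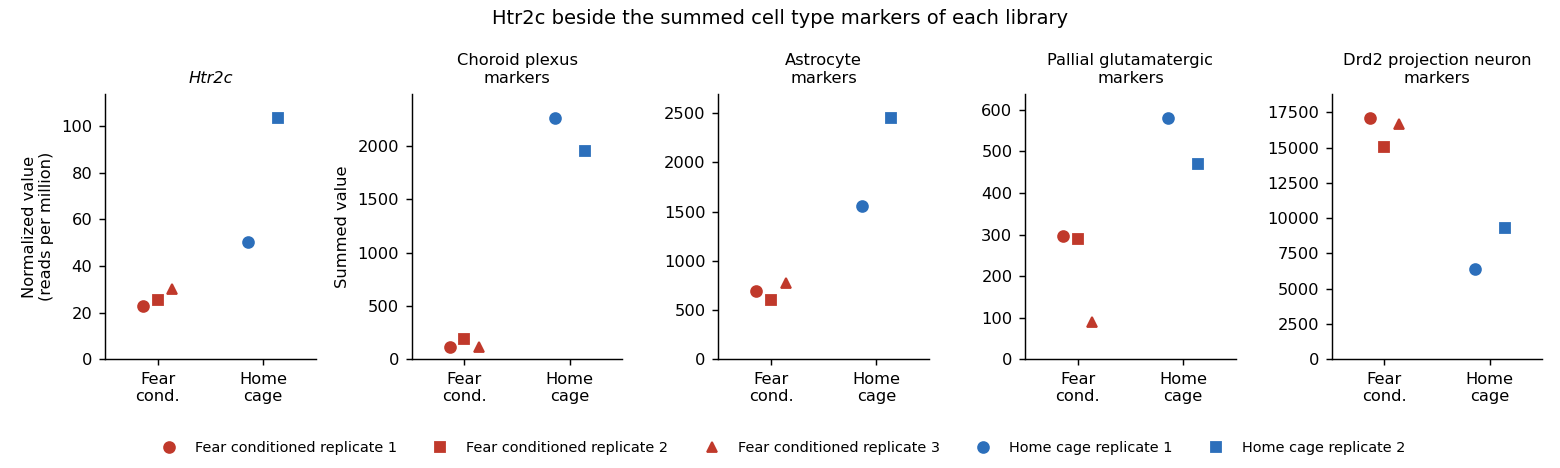
Value of Htr2c and the summed values of 4 sets of cell type markers (reads per 1000000, linear axes from 0), 1 point per library. Htr2c, choroid plexus, astrocyte and pallial glutamatergic markers are higher in both home cage libraries. The Drd2 projection neuron markers, a sum that is mostly Penk, are lower there (6421 and 9284 against 15033 to 17120).

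The 250 bases before the RefSeq start of Htr2c (GRCm38.p6, chrX:146962263-146962512, plus strand) are shown beside those of Htr7 as the window of the member with the opposite direction. A match to the AP-1 motif as searched (TGANTCA), in capitals, starts 198 bases before the start, and none of the other motifs searched was found.

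Htr2c: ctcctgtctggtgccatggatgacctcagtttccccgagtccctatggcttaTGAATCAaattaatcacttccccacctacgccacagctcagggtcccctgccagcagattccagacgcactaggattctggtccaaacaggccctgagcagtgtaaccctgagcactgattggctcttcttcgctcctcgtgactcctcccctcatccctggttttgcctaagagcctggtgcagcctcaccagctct

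The search allowed any base at the centre of the AP-1 motif, and the match here, TGAATCA, has an A there. It matches only this loose form and was not shown to be a site of the Fos and Jun proteins. The window is 55.6% G and C. Neither Htr1f nor Htr2a holds any of the motifs in its window of the same length. The genes with profiles most like that of Htr2c were Mocs1, 9330182L06Rik and Mcf2l, with root mean square differences of 0.07, 0.08 and 0.08 on the log2(value + 1) scale over 5 libraries.

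Htr2a (ENSMUSG00000034997) encodes the other Gq/11-coupled member, the receptor of classical hallucinogens and of many antipsychotics. Its values were 2.70, 12.7 and 6.90 after fear conditioning, from 57, 306 and 139 reads, against 1.60 and 0 in the home cage, from 48 and 0 reads. The groups did not overlap, but fear conditioned replicate 1 lay closer to home cage replicate 1 than to the other fear conditioned libraries. The log2 fold change was 2.19 (standard error 0.80, 95% interval 0.26 to 4.12), with an unadjusted p of 0.0318 and an adjusted p of 0.257 from limma. The fold was 3.94 with a pseudocount of 0.1 (limma adjusted p = 0.292), 3.24 in edgeR (adjusted p = 0.491) and 3.22 in DESeq2 (adjusted p = 0.258), and the exact permutation test, two-sided, gave p = 0.2. Relative to Drd2 the groups overlapped, with 1.045 on the log2 scale (adjusted p = 0.506, limma). Htr2a and Htr2c thus had differences of opposite sign, and no test of that contrast was made.

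Htr3a (ENSMUSG00000032269), which encodes the channel-forming 5-HT3A subunit of cortical and amygdala interneurons, was the lowest member per length. It was counted 40, 37 and 14 times after fear conditioning against 12 and 0 times in the home cage, for values of 1.90, 1.54, 0.695, 0.401 and 0. The groups did not overlap, but the third fear conditioned library and the first home cage library differed by only 2 reads before scaling. In limma without a filter on low values its log2 fold change was 0.97 (adjusted p = 0.331).

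**Figure D5:**
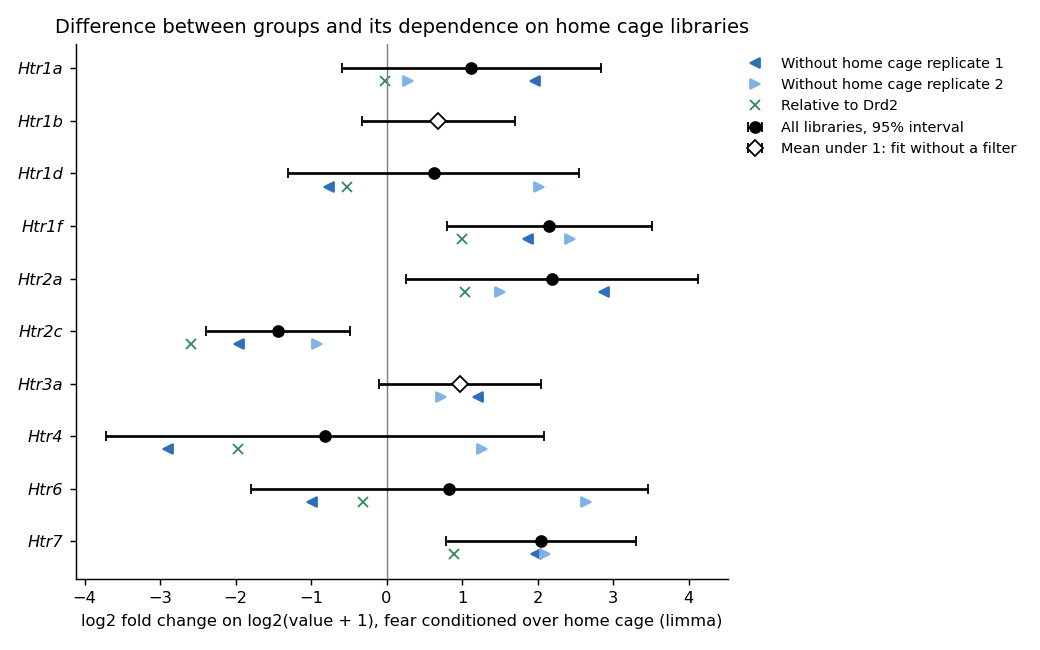
log2 fold change (fear conditioned over home cage, on log2(value + 1)) of each receptor gene from limma with its 95% interval, and the value without either home cage library or relative to Drd2. Htr7 stays between 1.98 and 2.10 without either home cage library, while Htr1d, Htr4 and Htr6 take opposite signs depending on which home cage library is left out.

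Calls appeared when either home cage library was left out, with the remaining library assumed to vary like the fear conditioned ones. Without home cage replicate 1, 8 of 9 members tested were called, but so were 60.5% of all genes. Without replicate 2, 5 of 9 members were called, beside 27.5% of all genes. Without replicate 1 and without replicate 2, the log2 fold changes were 1.98 and 2.10 for Htr7 and 1.87 and 2.43 for Htr1f. Those of Htr2c were -1.95 and -0.93. Both fits use the same fear conditioned libraries, so they are not independent of each other.

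Of the other genes of serotonin signalling, none of the 37 tested was called by limma. Htr5a, a further Gi/o-coupled receptor, had values of 3.08 to 4.08 after fear conditioning and 9.48 and 2.37 in home cage libraries, and Htr5b was too low to test. Of 9 genes for serotonin synthesis, transport and breakdown, 6 were listed and tested, and 0 had an unadjusted p under 0.05. Tph2, the enzyme that marks serotonin neurons, had values of 0.190 to 0.894 after fear conditioning and 0 and 5.27 in the home cage libraries. In this list 3 of the 6 genes tested had groups that did not overlap, beside 36.4% of all genes. Ddc, which makes serotonin from its precursor and also makes dopamine, had 5.62 to 13.7 after fear conditioning against 15.9 and 36.6 in the home cage, with a log2 difference of -1.40 (limma adjusted p = 0.316). Slc18a2, the vesicular monoamine transporter, went the other way, with 6.87 to 8.79 against 6.44 and 3.11 (0.70, limma adjusted p = 0.547). Maoa, which breaks down serotonin, had 15.2 to 16.4 after fear conditioning and 23.8 and 27.5 in home cage libraries, with a log2 fold change of -0.66 (± 0.38 SE, limma adjusted p = 0.422).

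Among 16 G protein and effector genes, 3 were lower after fear conditioning at an unadjusted p under 0.05 and 0 were higher. The shares of all genes were 7.32% and 9.49%. The median log2 fold change of the 16 was -0.22. The 3 lower genes were Gnai1, Gnaq and Plcb3 (adjusted p = 0.208, 0.290 and 0.274, limma). Gnai1, an inhibitory Gα subunit, stood at -0.95. Gnaq, a Gα subunit that 5-HT2 receptors use, stood at -0.73 and Plcb3, a phospholipase C, at -1.35. Of the same families, Gna11 (0.003), Plcb1 (0.13) and Plcb4 (0.23) had overlapping groups. Plcb1 had values of 299 to 472 in any library, against 4.02 to 14.2 for Plcb3. Groups were apart with lower values for 7 genes (Gnai1, Gnai2, Gnai3, Gnas, Gnaq, Plcb3 and Kcnj3) and with higher values for Gnal. The shares of all genes were 16.1% and 20.2%. Gnal, the stimulatory Gα of striatal neurons, had the opposite direction, with values of 483 to 886 after fear conditioning and 425 and 459 in home cage libraries (adjusted p = 0.346, limma). Gnas was listed at only 7.66 to 46.0 in any library, and its locus holds overlapping transcripts, so its value is uncertain. The most abundant of these genes was Gnao1, the Gα subunit of Go, with values of 797 to 995 after fear conditioning and 608 and 1382 in the home cage. Of 14 genes listed as partners and modifiers of the receptors, S100a10 and Jmjd6 were higher and Adrbk1 lower at an unadjusted p under 0.05, beside 9.49% and 7.32% of all genes. S100a10 (p11), which binds 5-HT1B and 5-HT4 receptors, had values of 49.6 to 105 after fear conditioning and 26.0 and 32.3 in home cage libraries, a log2 fold change of 1.29 (± 0.38 SE, limma adjusted p = 0.217). Jmjd6 (1.82, limma adjusted p = 0.199) is a dioxygenase with no established role at these receptors. Groups were apart with higher values for S100a10, Jmjd6, Cdk5 and Fyn and with lower values for Adrbk1 and Arrb2 (4 and 2 of 14). The shares of all genes were 20.2% and 16.1%. Adrbk1, the kinase that desensitizes many receptors of this class, stood at -0.66 (limma adjusted p = 0.259). Adar and Adarb1, whose products edit the Htr2c transcript, had log2 fold changes of 0.23 and 0.04, with overlapping groups.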

How the data were processed

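Polyadenylated, ribosome-bound RNA was sequenced from 5 libraries (3 fear conditioned, 2 home cage), grouped by the labels and numbered in order of deposit. The methods name Tuxedo DESeq, and the submitters' processing notes name DESeq and mm8; aligner, versions and use of strand are not given in the sources used here. The authors deposited a signal per gene and library, scaled per 1000000 of an effective library size, with a gene length; 15093 genes are listed, each above 1 in at least 1 library. All values (100%) were whole multiples, within 0.01, of the value of 1 read, and these were used as recovered reads (19605318 to 27937520 per library). The design was written for either counts or normalized values, and the latter form applied.

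Groups were compared with limma 3.58.1 (lmFit, eBayes with a trend) on log2(value + 1), which understates changes of low genes. Alternatives were a pseudocount of 0.1, 2 other filters, quantile normalization, edgeR 4.0.16 and DESeq2 1.42.0 on recovered reads, no fold change cutoff, each library left out, and, added after seeing the data, values relative to Drd2. The receptor genes and lists were chosen with earlier results of these data known. Named were all 10 receptors and the 3 nearest profiles of the 2 most abundant. Of the serotonin lists, genes with an unadjusted p under 0.05 or groups apart and the most abundant were named. Of the cell type lists, only defining or abundant markers were named. Htr5a, Htr5b, Tph2, Adar, Adarb1, Gna11, Plcb1 and Plcb4 were named after their values were seen. Of the lists, Htr2b, Htr3b, Tph1, Slc6a4, Fev, Gpr52 and Tac3 were not matched by symbol or identifier and are not analysed here. Promoter windows came from RefSeq (GRCm38.p6) for 8 members. The fits were tested on simulated data. R 4.3.3, Python 3.11.15, pandas 2.3.3, numpy 2.4.6 and matplotlib 3.10.9 were used.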

Additional observations from a re-analysis of the deposited data

How the results depend on the processing

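No paired analysis was possible because the groups share no replicate numbers in the labels. With limma, 0 genes and 0 receptor genes were called under a pseudocount of 0.1, both other filters, quantile normalization and no fold change cutoff, and edgeR also called 0 of both. DESeq2 called 1128 genes and 2 receptor genes, and 3 genes were called relative to Drd2, a scale on which the median gene stood at -1.07. With a library left out, between 0 and 8025 genes and between 0 and 8 receptor genes were called, with the single remaining home cage library assumed to vary like the others. Groups did not overlap for 6 of 10 receptor genes (36.4% of all genes tested), 5 after quantile normalization (37.4%), 2 relative to Drd2 (48.1%), 6 to 7 without a fear conditioned library (40% to 42.4%), and 10 and 9 without home cage replicate 1 or 2 (87.7% and 78.3%), where a single home cage value is left to compare with. These counts cover all 10 members, while the shares cover only genes tested. In the main fit Htr1b and Htr3a are among the 6 but were too low to be tested. The like count beside 36.4% is therefore 4 of 8 (Htr7, Htr1f, Htr2a and Htr2c). Of the places in the order by level per length, 6 were kept within the fear conditioned libraries, 4 within the home cage libraries and 4 to 8 with a library left out. The direction turned relative to Drd2 for Htr1a (-0.026), Htr1d (-0.52) and Htr6 (-0.32). That scale subtracts the Drd2 value of each library, so every log2 fold change falls by that of Drd2 (1.15). The direction also turned with edgeR (-0.12) and DESeq2 (-0.16) for Htr6. It turned without home cage replicate 1 for Htr1d (-0.77) and Htr6 (-0.98), and without home cage replicate 2 for Htr4 (1.26). The cause of the turns on scales other than Drd2 was not tested. With a library left out, Htr1d ranged from -0.77 to 2.02, Htr4 from -2.89 to 1.26 and Htr6 from -0.98 to 2.65. Among the other fold changes of single receptor genes, 84 kept their direction and side of the threshold and 14 kept their direction and passed it. At these depths, values under 0.10 rest on 3 reads or fewer.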
